A study of Mus musculus with 48 samples.

Results

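The small subunit of the cytosolic ribosome (40S) binds the mRNA and holds the decoding site, and each of its proteins is encoded by a gene of its own. A set of 28 mouse genes for these proteins was followed over a day in liver. They were taken by name, with a mean of at least 1 RPKM (a read count divided by the length of the gene and by the depth of its library) required in both assays. Of the 28 genes, 27 had values in both assays and all 27 passed that minimum, out of 9445 genes that passed it in the whole series. Rps27 was not analysed here.

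Ribosomal protein mRNAs begin with a stretch of pyrimidines, the terminal oligopyrimidine (TOP) motif, and their translation is switched up and down together by the kinase complex mTORC1 through the RNA-binding protein LARP1. In liver, feeding raises mTORC1 activity, so these mRNAs are known for moving between ribosome-free and ribosome-bound forms while their amount changes little. Rps6, one of the proteins studied here, is itself the best known substrate of the S6 kinases that mTORC1 activates.

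The livers came from male C57BL/6JRj mice of 11 to 12 weeks, which had lived for 2 weeks in a cycle with 12 h of light per day. Collection took place every 2 h, giving 12 time points in zeitgeber time (ZT), counted in hours from lights on, with darkness from ZT12. Each time point had 2 lysate pools of 2 livers, and each of the 24 pools gave a ribosome footprint library (mRNA fragments shielded by ribosomes) and a total RNA library. The animals carried no allele or agent in the labels, and every mouse had the same strain, sex and light schedule.

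Depth was estimated from the step between low values. It came to a median of 17.95 M reads per footprint library (13.9 to 43.1 M) and of 11.8 M per total RNA library (3.89 to 23.8 M). About 26890 to 164900 footprint reads and 26790 to 169900 total RNA reads per library fell on the 27 genes. Without Fau, the fewest estimated reads for any gene in any library were 249 in footprints and 262 in total RNA. Hepatocyte marker transcripts were abundant in every pool, with 7 of 7 genes listed. A set of 6 pools stood apart by transcripts of pancreatic acinar cells: both pools of ZT2, replicate 1 of ZT4 and ZT6, and replicate 2 of ZT8 and ZT16. The summed footprint level of 10 listed acinar markers was 222 to 1238 RPKM in these 6 pools and 0.843 to 25.98 RPKM in the other 18, and that of the 8 markers listed in total RNA was 139 to 679 and 0.215 to 11.0 RPKM. In whole liver, fewer cells of a type and less RNA per cell cannot be told apart.

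The start sites of these genes show how the TOP motif looks in the reference. RefSeq gave a start for 23 of the 27 genes on build GRCm38.p6. The motif was searched on the transcript strand as a C at the annotated start followed without a break by C or T, for a run of at least 5 bases. It was found at the start of 6 genes (26.1% of the 23), against 2.95% of the 7499 tested genes with an entry and 2.5% of all 32841 start sites. Each window below holds 10 bases before the annotated start and 20 from it on, with the pyrimidine run in capitals. The 6 genes with the run are shown first, then Rps12 and Rps26, which had the widest and the narrowest footprint cycle and no run at the annotated base.
Rps6, chr4:86857348-86857377, minus strand: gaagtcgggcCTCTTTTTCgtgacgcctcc
Rps10, chr17:27635225-27635254, minus strand: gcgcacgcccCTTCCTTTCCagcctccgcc
Rps15a, chr7:118116128-118116157, minus strand: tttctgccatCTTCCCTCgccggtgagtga
Rps18, chr17:33955646-33955675, minus strand: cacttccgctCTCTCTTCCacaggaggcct
Rps21, chr2:180257369-180257398, plus strand: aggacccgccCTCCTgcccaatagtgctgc
Fau, chr19:6057937-6057966, plus strand: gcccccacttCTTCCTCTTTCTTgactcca
Rps12, chr10:23787190-23787219, minus strand: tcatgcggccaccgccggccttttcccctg
Rps26, chr10:128626487-128626516, minus strand: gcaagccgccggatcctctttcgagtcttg
The search looked only at the annotated base, and annotated starts can lie away from the base used in liver. The median footprint fold described below was 1.69 for the 6 genes with the run and 1.62 for the 17 without it.

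Ribosomal protein genes have many processed copies, so shared reads limit every value here. Between 22.6% (Rps3) and 100% (9 genes, among them Rps6, Rps13, Rps16 and Rpsa) of the 28-base stretches of a coding sequence also occur in annotated transcripts of another gene, with a median of 95.9%. How the authors' counting treated such reads is not given in the sources used here, so the level of each gene is uncertain. Genes with few shared stretches differed in their footprint cycles. Of the 27, 3 shared under 60% of their stretches. Rps3, the least shared, had a footprint fold of 1.44 (adjusted p 0.0445). The others were Rps9 (58.2% shared, fold 1.62, adjusted p 0.0383) and Rps19 (59.0% shared, fold 1.99, adjusted p 0.0101). Outside the set, Rack1, a signalling scaffold on the head of the subunit that shares 5.5% of its stretches, had a fold of 2.02 (adjusted p 0.00339), and the paralogue Rps27l, which shares 39.9%, had a fold of 1.09 (adjusted p 0.608). Over 26 genes without Fau, footprint fold and share of stretches had a Pearson r of 0.25, a description across genes that share their libraries.

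Footprints on most small-subunit mRNAs were high at ZT10 and in most pools of ZT12 to ZT16. They were low in both pools of ZT2, ZT8 and ZT20, and at ZT4, ZT6 and ZT22 only in the lower pool. Both pools of ZT2, the lower pools of ZT4 and ZT6 and replicate 2 of ZT8 held transcripts of pancreatic acinar cells. Rps12, Rps20 and Rps3a1 cycled the most, by more than 2-fold. A 24 h curve was fitted to log2(RPKM + 0.1) of the 24 footprint libraries, and a gene was called at an adjusted p under 0.05 with a peak-to-trough fold of at least 1.5. By this rule 16 of 27 genes cycled, and 18 passed at any fold, while 16.7% and 45.0% of all genes tested did so. The median fitted fold was 1.63 for the 27 genes and 1.23 for all genes. Called genes peaked between ZT13.6 and ZT14.9.

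The high level at ZT10 was shared by both pools of that time point. Relative to each gene's own mean over the day, the median of 26 genes (Fau left out) was 0.58 and 0.67 on the log2 scale in the pools of ZT10, against -0.64 and -0.19 in those of ZT8. At ZT10, 25 of 26 genes in one pool and 26 of 26 in the other lay above their mean, against 0 and 4 of 26 at ZT8. Replicate 2 of ZT10 was the deepest footprint library, with 43.1 M reads, and replicate 1 held 20.9 M reads. The part of depth in the level at ZT10 was not tested. As time point means, 25 of the 27 genes were highest at ZT10 and the other 2 at ZT12, and 15 were lowest at ZT8. The fitted peaks near ZT14 describe the broad level over the first part of the night, not this first maximum. ZT10 and ZT8 are set side by side below because they held most of these highest and lowest means. All members share the libraries of both times, so gaps between them are descriptions and not separate support for each gene. A test of the time point as a factor, which assumes no curve, called 9 of 27 genes, against 26.7% of all genes.

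**Figure D1:**
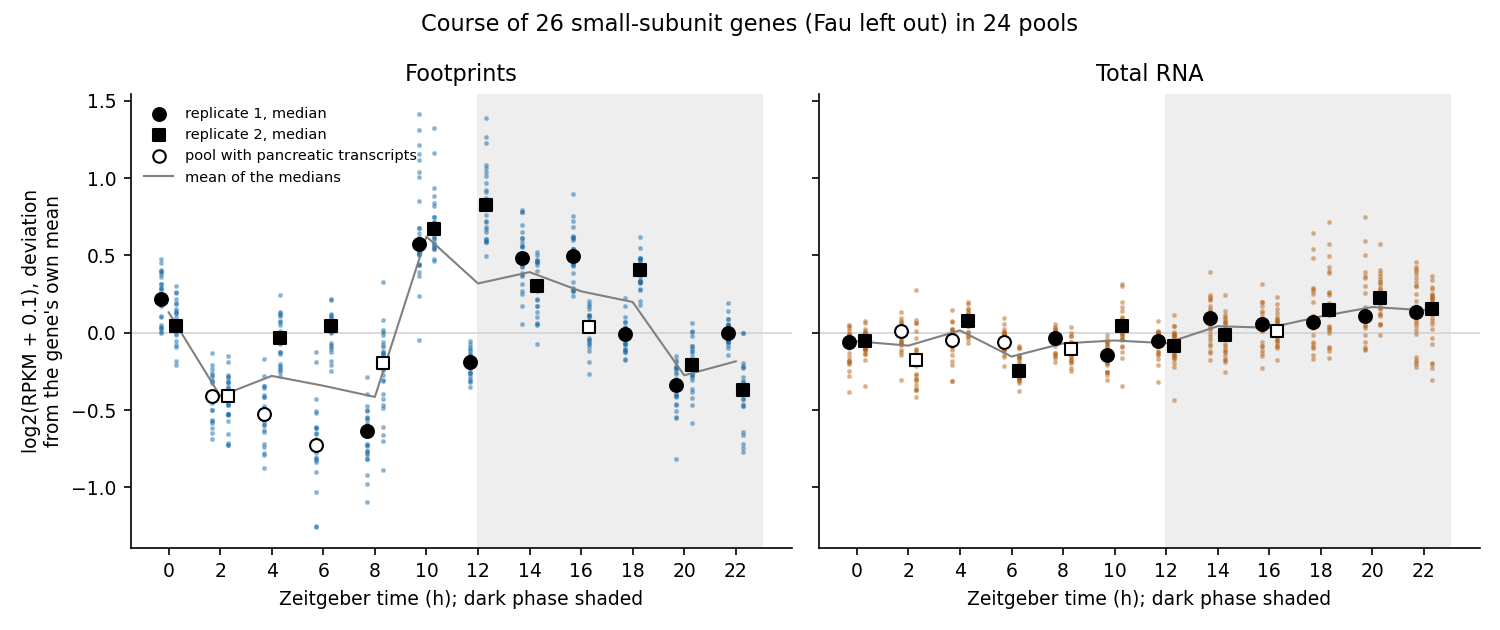
Deviation of 26 small-subunit genes from their own daily mean, as log2(RPKM + 0.1), against zeitgeber time in hours, footprints left and total RNA right. Small dots are genes, large symbols the median of a pool (circle replicate 1, square replicate 2, open where the pool held pancreatic transcripts) and the line the mean of both medians. Footprint medians run between -0.73 and 0.83, total RNA medians between -0.25 and 0.23.

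The pools of ZT12 disagreed on this course. The median deviation of the 26 genes was 0.83 in replicate 2 and -0.19 in replicate 1, with 26 and 0 of 26 genes above their own mean. Without replicate 2 of ZT12 the number of called genes was 11, and without replicate 1 it was 21; without both it was 13, and without both pools of ZT10 it was 14. A set of 11 genes was called whichever single pool was left out: Rps3a1, Rps4x, Rps6, Rps10, Rps13, Rps16, Rps19, Rps20, Rps24, Rps25 and Rps27a. The shares of all genes called without these pools are not given here, so the counts describe the members only.

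The pools with pancreatic transcripts fell between ZT2 and ZT8, ZT16 apart. At ZT0 and ZT20, where no pool held them, the median deviations in footprints were 0.22 and 0.05, and -0.34 and -0.21. At ZT4 and ZT6 the pool that held them was the lower one, with medians of -0.52 and -0.73 against -0.03 and 0.04 in the other pool. At ZT16 it was also the lower one, with 0.04 against 0.50, and at ZT8 the higher, with -0.19 against -0.64. Without the 6 pools, 2 of the 27 genes (7.41%) were called, Rps6 (adjusted p 0.0265) and Rps27a (adjusted p 0.0343), while 15.2% of all genes were, against 16.7% with all pools. The members' share was thus below that of all genes in these 18 pools. At an unadjusted p under 0.05, 8 of the 27 passed there, against 43.3% of all genes. The factor test then called 1 of 27, Rps20, against 12.6% of all genes. The fitted log2 range of the 27 genes was narrower in 26 of them and kept a median of 81.4% of its size, with a median of 0.57 without these pools, against 0.70 with all pools. The part of these transcripts in the light-phase level was not tested.

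The proteins of the head of the subunit, which swivels as the ribosome moves along the mRNA, and those of its body and platform gave similar counts. Of 12 head genes, 8 were called in footprints, with a median fold of 1.72, and of 15 body and platform genes 8 were called, with a median of 1.59. The difference between both groups was not tested.

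The widest cycles were those of Rps12, Rps20, Rps3a1 and Rps19. Rps12, a head protein, ranged from 28.9 RPKM at ZT6 (replicate 1) to 181 RPKM at ZT12 (replicate 2) with a median of 65.5 RPKM over the 24 pools. Its pools held 161 and 155 RPKM at ZT10, against 32.3 and 62.95 RPKM at ZT8. The fitted fold was 2.23 (95% interval 1.35 to 3.68, adjusted p 0.0281). Leaving out replicate 2 of ZT12 raised that adjusted p to 0.0637.

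Rps20, a head protein near the path of the mRNA, had 339 and 253 RPKM at ZT10, against 69.3 and 144 RPKM at ZT8. Its fold was 2.23 (1.48 to 3.36, adjusted p 0.00745). Rps3a1, on the platform side of the body, had 453 and 335 RPKM at ZT10, against 115 and 205 RPKM at ZT8, with a fold of 2.16 (1.51 to 3.10, adjusted p 0.00329). Rps19, a head protein whose human gene is the one most often mutated in Diamond-Blackfan anaemia, had 142 and 189 RPKM at ZT10, against 57.99 and 64.4 RPKM at ZT8. Its fold was 1.99 (1.38 to 2.87, adjusted p 0.0101). The pools of ZT10 and ZT8 did not overlap in these genes, but both times were picked from these values and the genes share the libraries.

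Rps6 gave the smallest p of the set in footprints. Its time point means were 234 RPKM at ZT0, 177 at ZT2, 183 at ZT4, 194 at ZT6, 191 at ZT8, 360 at ZT10, 314 at ZT12, 330 at ZT14, 296 at ZT16, 268 at ZT18, 208 at ZT20 and 207 at ZT22. The pools of ZT10 were close to each other (357 and 363 RPKM), while those of ZT12 were 213 and 414 RPKM. The fitted fold was 1.76 (1.40 to 2.22, adjusted p 0.0011).

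Rps27a, made as a fusion with ubiquitin that is cut off after translation, had the next smallest p, with a fold of 1.93 (1.47 to 2.54, adjusted p 0.00123). Its pools held 329 and 388 RPKM at ZT10, against 136 and 176 RPKM at ZT8. The other called genes had folds between 1.57 and 1.86: Rps18, Rps4x, Rps23, Rps16, Rps10, Rps25, Rps9, Rps24, Rps7 and Rps13. Among them, Rps23 sits in the decoding centre and Rps9 lines the channel by which mRNA enters, and Rps10 and Rps25 belong to the head.

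Of the 11 genes that were not called, Rps3 (1.44-fold, adjusted p 0.0445) and Rps14 (1.37-fold, adjusted p 0.0448) passed the p threshold alone. Rps28 (1.63-fold, adjusted p 0.0539), Rps15a (1.52-fold, adjusted p 0.0552) and Rpsa (1.60-fold, adjusted p 0.0593) had folds above 1.5 and p values just beyond the threshold. Rpsa, which also serves as a laminin-binding protein, held 99.6 and 255 RPKM in the pools of ZT12, against 79.1 and 76.4 RPKM in those of ZT8. Rps15 (1.35-fold), Rps21 (1.45-fold) and Rps2 (1.47-fold) did not pass either. Rps14, on the platform, had 259 and 280 RPKM at ZT10, against 145 and 170 RPKM at ZT8. Rps15, in the head, had 284 and 258 RPKM at ZT10, against 135 and 176 RPKM at ZT8.

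The narrowest footprint cycles were those of Rps26 and Rps29. Rps26, at the channel where mRNA leaves, had a fold of 1.20 (1.00 to 1.54, adjusted p 0.411). Its pools at ZT10 held 257 and 468 RPKM, against 181 and 168 RPKM at ZT8. Rps29, a small zinc-binding head protein, had 438 and 490 RPKM at ZT10, against 264 and 260 RPKM at ZT8, with a fold of 1.22 (adjusted p 0.217).

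**Figure D2:**
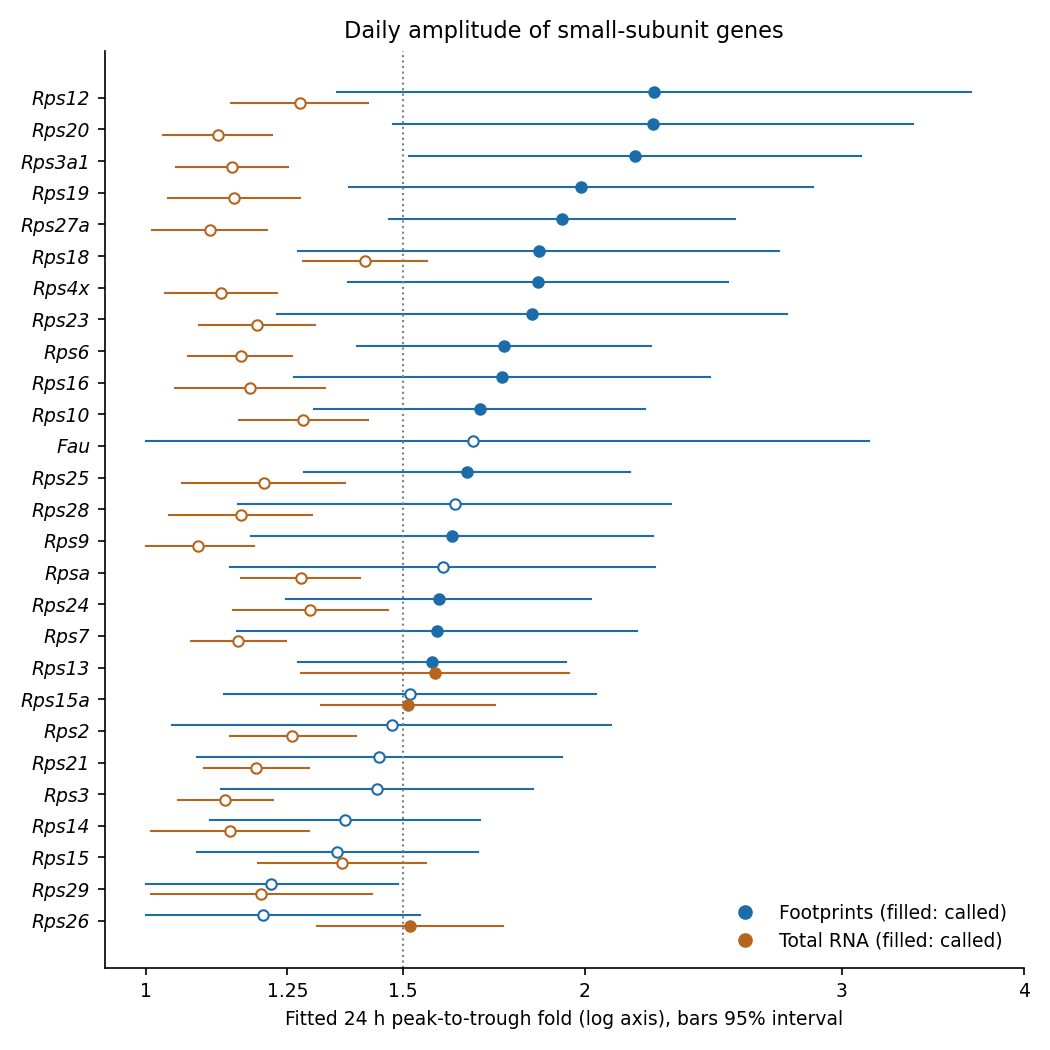
Fitted 24 h peak-to-trough fold of each small-subunit gene on a log axis, footprints above and total RNA below within each row, with 95% intervals. Filled points were called, and the dotted line marks a fold of 1.5. Total RNA of Fau, listed at 0 in 8 pools, is left out. Footprint folds run between 1.20 and 2.23, and total RNA folds between 1.09 and 1.58.

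In total RNA the same genes varied little. The 24 h curve called 3 of 27 genes, close to the background of 15.8%. At any fold, 16 of 27 passed an adjusted p of 0.05, while 43.1% of all genes did. The median fold was 1.19 for the 27 genes, and on the log2 scale the median range was 0.25 for them and 0.33 for all genes. Without Fau the pool medians ran from -0.25 to 0.23 on the log2 scale. The 16 genes that passed peaked between ZT16.4 and ZT23.7, later than the footprint peaks, a difference that was not tested. The factor test called 12 of 27 genes, against 37.0% of all genes.

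The genes called in total RNA were Rps13, Rps26 and Rps15a, and their transcripts rose late in the night. Rps13 had 286 and 300 RPKM in the pools of ZT18 and 307 and 243 RPKM in those of ZT20, against 142 ± 2.4 RPKM (SD, n = 2) at ZT0. By ZT22 its pools were at 162 and 148 RPKM, below every pool of ZT18 and ZT20. Its fold was 1.58 (1.28 to 1.95, adjusted p 0.00354), which makes its total RNA cycle the widest of the set apart from Fau.

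Rps26 had 447 and 456 RPKM at ZT18 and 464 and 402 RPKM at ZT20, and no pool outside these times was above 354 RPKM. Its fold was 1.52 (1.31 to 1.76, adjusted p 0.000226). Rps15a, a body protein, had 522 and 526 RPKM at ZT18, while the pools of ZT20 held 529 and 368 RPKM, and its fold was 1.51 (1.32 to 1.73, adjusted p 0.000115). Rps18, a head protein, had the smallest p in total RNA (adjusted p 1.63e-05) but a fold of 1.41. Its level was 855 ± 56.6 RPKM at ZT18, against 584 ± 45.6 RPKM at ZT6 (SD, n = 2 each).

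The late rise coincided with shallow total RNA libraries. The pools of ZT18 held 6.54 and 3.89 M reads and those of ZT20 8.35 and 8.58 M reads. In the same pools, 795 other genes with coding sequences of at most 500 bases had median deviations of 0.07 and 0.15 at ZT18 and 0.12 and 0.18 at ZT20, beside 0.07, 0.14, 0.11 and 0.23 for the 26 small-subunit genes. The highest deviation among the 26 genes was 0.65 and 0.71 at ZT18 and 0.75 and 0.58 at ZT20. Shallow libraries of other times differed. Rps13 held 137 RPKM in replicate 2 of ZT2 (7.54 M reads) and 212 RPKM in replicate 1 of ZT14 (6.75 M reads). The part of depth and of short coding sequences in the late rise was not tested. In footprints these short genes had medians of -0.10 and 0.10 at ZT10 and -0.15 in replicate 2 of ZT12. The calls of Rps13, Rps26 and Rps15a rest on folds close to 1.5. The number called was 1 without either pool of ZT18 or without replicate 1 of ZT20, and 0 after scaling all libraries to a common sum, where the folds were 1.46, 1.39 and 1.40 with adjusted p values of 0.0112, 0.00164 and 0.000714.

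The narrowest total RNA cycles were those of Rps9 and Rps27a. Rps9 lay between 399 and 535 RPKM, with a fold of 1.09 (adjusted p 0.248), and its highest time was ZT22, at 533 ± 2.69 RPKM (SD, n = 2). Rps27a lay between 406 and 579 RPKM with a fold of 1.11 (adjusted p 0.156). Both were called in footprints, with folds of 1.62 and 1.93. The remaining folds in total RNA were 1.36 for Rps15, 1.30 for Rps24, 1.28 for Rps10, 1.28 for Rpsa, 1.28 for Rps12 and 1.26 for Rps2. They were 1.20 for Rps25, 1.20 for Rps29, 1.19 for Rps23 and 1.19 for Rps21, and for the other 9 genes (Rps16, Rps28, Rps6, Rps7, Rps19, Rps3a1, Rps14, Rps3, Rps4x) and Rps20 they lay between 1.12 and 1.18.

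**Figure D3:**
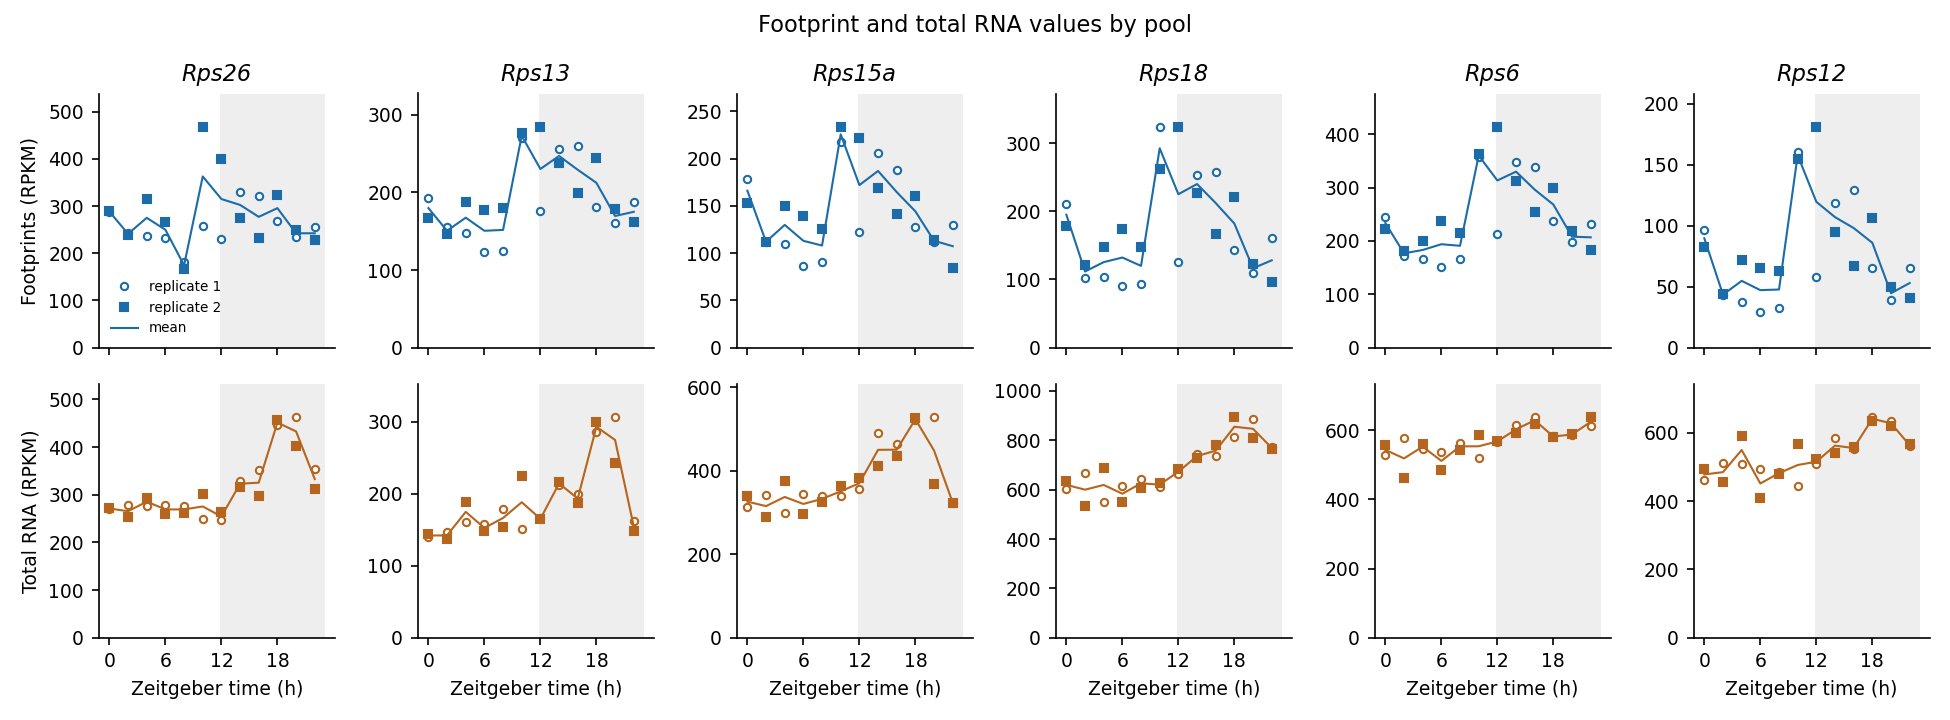
Footprint (upper row) and total RNA (lower row) values in RPKM by pool for Rps26, Rps13, Rps15a and Rps18, whose total RNA departed from the others, and for Rps6 and Rps12. Open circles are replicate 1, filled squares replicate 2 and lines their mean, and darkness is shaded. Total RNA of Rps13 reaches 307 RPKM at ZT20 and is back at 162 and 148 RPKM at ZT22.

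Departure from the shared course was tested by fitting the 24 h curve to each gene minus the mean of the other members. For genes outside the set the mean of all members was subtracted. A gene without a cycle then takes on the inverse of the members' course. In both assays the shares of all genes therefore follow in part from the subtraction and are no background for the members. In footprints 1 of 27 genes departed, against 58.6% of all genes tested. That gene was Fau (adjusted p 0.0179). The correlation of each of the other 26 genes with the mean of the rest over the 24 libraries, which share depth and scaling, was 0.77 (Rps26) to 0.99 (Rps12), with a median of 0.96 over the set. Without the pools that held pancreatic transcripts, 0 of 27 genes departed (limma, 1 of 27 at an unadjusted p under 0.05), against 11.8% of all genes.

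In total RNA, 5 of 27 genes departed, against 25.9% of all genes. They were Rps18 (adjusted p 0.00349), Rps15a (0.00717), Rps26 (0.0073), Rps13 (0.0105) and Rps15 (0.0447) and their departures were fitted to peak between ZT15.6 and ZT20.0. Rps15, a head protein, had 560 ± 12.8 RPKM at ZT22, against 365 ± 41.2 RPKM at ZT10 (SD, n = 2 each). Because Fau was listed at 0 in several total RNA libraries, it moved the mean of the others. With Fau left out of that mean, 11 genes departed, now also Rps2, Rpsa, Rps27a, Rps14, Rps9 and Rps29. The share of all genes was not counted for that mean. Without the 6 pools with pancreatic transcripts, 1 of 27 did, Rps26, against 17.2% of all genes.

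Fau encodes a protein made as a fusion with the ubiquitin-like protein FUBI, and it stood apart in level, course and spread. Its footprints ranged from 9.11 RPKM at ZT16 (replicate 2) to 124 RPKM at ZT12 (replicate 2), with a median of 32.4 RPKM. In total RNA it was listed at 0 in 8 of 24 pools, with a highest value of 40.5 RPKM at ZT4 (replicate 2), and the median pool held about 32 reads. Other members averaged between 188 and 824 RPKM in total RNA. Its 28-base stretches all occur in the processed pseudogene Gm9843 as well. The fitted footprint fold was 1.68 with a peak at ZT7.5 (adjusted p 0.333), and the total RNA curve (adjusted p 0.228) rests on the pools at 0, so no fold is given for it.

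A second component with a period of 12 h was tested on top of the 24 h curve. In footprints it called 0 of 27 genes, against 4.49% of all genes. At an unadjusted p under 0.05, 4 genes passed (Fau, Rps20, Rps23 and Rps7), against 21.6% of all genes. In total RNA it called 1 of 27, Rps26 (adjusted p 0.0139), against 5.05% of all genes. The added curve of Rps26 had a range of 0.37 on the log2 scale and a maximum at ZT6.6 and again 12 h later.

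Translation efficiency, the ratio of footprints to total RNA, was compared over the day as the interaction of assay and 24 h curve in the 48 libraries. No member was called, while 0.371% of all genes were. At an unadjusted p under 0.05, 19 of 27 genes passed, against 11.0% of all genes, and the median fitted fold was 1.68 for the 27 genes and 1.16 for all. Without the 6 pools with pancreatic transcripts, 15 of 27 passed that unadjusted p, against 5.97% of all genes. The fitted log2 range of the members there kept a median of 91.9% of its size, and 0 of all 9445 genes were called. The members share their libraries, so these counts are not independent. The fit on the ratio of each lysate pool called 1 of 27 genes, Rps27a (1.76-fold, peak at ZT14.8, adjusted p 0.0483), against 3.23% of all genes. Its adjusted p in the unpaired fit was 0.111. The next smallest p values in the paired fit were those of Rps3a1 (2.00-fold, adjusted p 0.0735), Rps6 (1.60-fold, adjusted p 0.0744) and Rps16 (1.90-fold, adjusted p 0.0746).

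On the mean over the day, most small-subunit mRNAs carried few footprints for their total RNA. The median of the mean log2 ratios was -1.42 for the 27 genes and -0.34 for all genes, whose middle 50% lay between -0.91 and 0.12. Of the 27, 24 lay below the median of all genes and 20 below the lower quartile. The ratio is relative between genes, since the scale between both assays is arbitrary.

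Rps12 was the lowest, at -2.94 ± 0.77 (SD over 24 pools), which only 0.5% of all tested genes undercut. It averaged 78.99 RPKM in footprints and 535 RPKM in total RNA. Rps2, at the mRNA entry channel, followed with -2.47 ± 0.55, and Rps23 with -2.39 ± 0.60. These genes thus took places between 0.5% and 1.8% from the bottom of all genes. In the order of all 26 genes without Fau, every gene differed from its neighbours by less than either SD over pools. That SD holds the daily course and pool shifts that the genes share, so it does not measure how well their order is resolved.

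The highest after Fau were Rps13 at 0.05 ± 0.42 and Rps26 at -0.21 ± 0.39 (71.5% and 56.7% of all genes lay below them), followed by Rps16 at -0.45 ± 0.54. Rps13 averaged 195 RPKM in footprints and 188 RPKM in total RNA, and Rps26 272 and 313 RPKM. The range of an SD around Rps13 did not reach those of the genes from Rps25 down, on an SD that holds the shared course and is no test of the difference. Fau, at 3.82 ± 3.42, rests on its pools at 0. Over 26 genes without Fau the mean ratio had a Pearson r of -0.5 with the log10 of the coding length, which runs from 168 to 906 bases without the stop codon, and of 0.14 with the share of stretches found in other genes. These genes share libraries and copies, so both are descriptions.

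**Figure D4:**
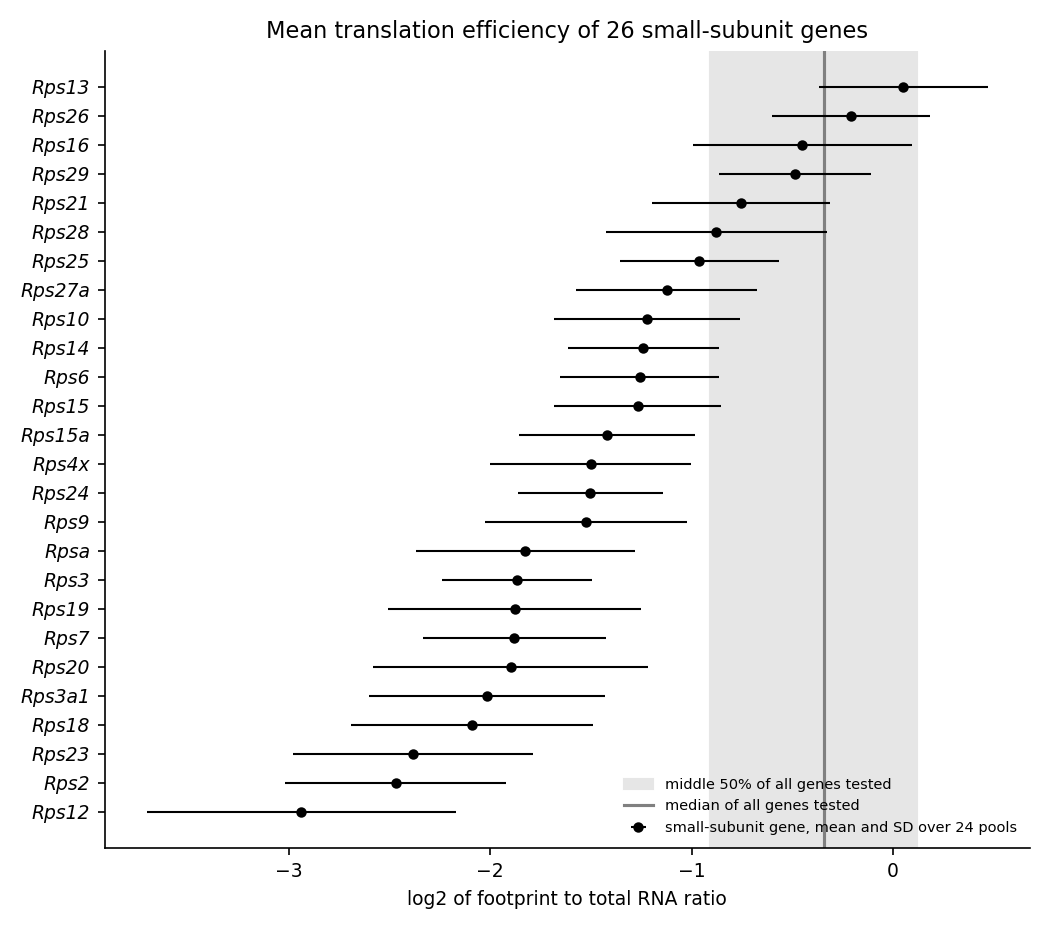
Mean log2 ratio of footprints to total RNA for 26 small-subunit genes, with the SD over 24 pools as bars. The grey band holds the middle 50% of all genes tested, from -0.91 to 0.12, and the line marks their median of -0.34. Rps13, Rps26, Rps16 and Rps29 lie closest to that median, and Rps12 is lowest at -2.94.

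The spread between both pools of a time point was wide in footprints and narrow in total RNA. The SD between pools had a median of 0.35 on the log2 scale in footprints for the 27 genes and 0.17 for all genes, and 27 of 27 lay above the median of all genes. In total RNA it was 0.11 for the 27 genes and 0.18 for all, and only 1 of 27, Fau, lay above that median. Genes of a like level, 947 in footprints and 435 in total RNA, had medians of 0.14 and 0.12.

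Most of the footprint spread was shared among the members. After subtracting the mean of the others, the median SD between pools was 0.14 in footprints and 0.075 in total RNA. The spread was not particular to the small subunit. In footprints the median SD was 0.33 for large-subunit genes and 0.24 for other TOP mRNAs. Over the 24 libraries, the members' pool medians had a Pearson r of 1.0 with those of large-subunit genes. With those of other TOP mRNAs it was 0.98. At ZT12, ZT6, ZT4 and ZT18 all 26 genes were higher in replicate 2 than in replicate 1, with median differences of 1.01, 0.70, 0.47 and 0.41. At ZT14 and ZT16 all 26 were lower in replicate 2, by medians of -0.18 and -0.47. In total RNA, the median difference stayed between -0.19 and 0.18 at every time point, and at ZT12 it was -0.02.

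The most variable genes in footprints were Fau (SD 0.76), Rps12 (0.58) and Rps23 (0.48). Rps23 differed at ZT10, with 218 RPKM in replicate 2 and 102 RPKM in replicate 1, where the median difference of the 26 genes was 0.07. The least variable were Rps29 (0.23), Rps15 (0.25) and Rps25 (0.26). Rps25 was the most abundant member in footprints, at 350 RPKM on average, and also the gene with the smallest p in the footprint factor test (adjusted p 0.0109). Rps28, a small head protein, had 407 RPKM in replicate 2 of ZT10 and 686 RPKM in replicate 1, the reverse of Rps23.

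**Figure D5:**
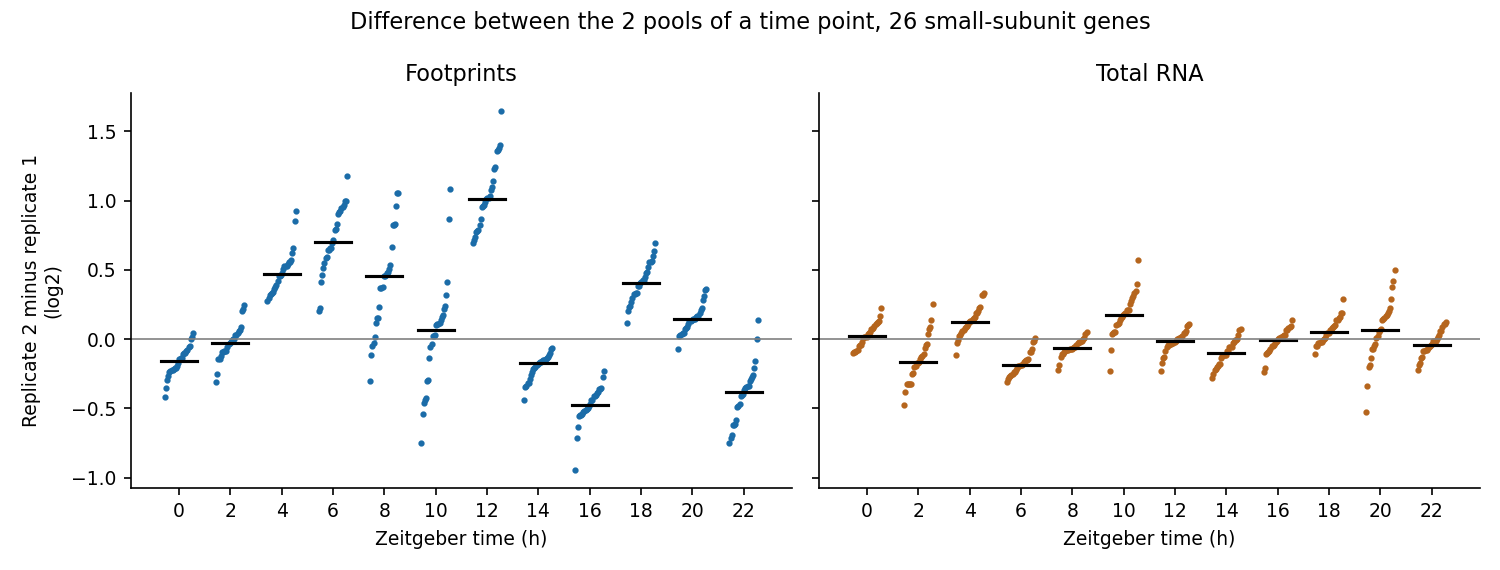
Difference between the pools of a time point (replicate 2 minus replicate 1, log2) for 26 small-subunit genes, sorted within each time point, footprints left and total RNA right; bars are medians. In footprints all 26 genes lie above 0 at ZT4, ZT6, ZT12 and ZT18 and below 0 at ZT14 and ZT16, while total RNA medians stay between -0.19 and 0.18.

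Other genes of translation were read from the same footprint fit. Of 47 large-subunit genes tested, 27 were called, against 16.7% of all genes, with a median fold of 1.61 and Rplp2 (2.04-fold) as the widest. Of 17 other TOP mRNAs, 10 were called, with a median of 1.58, among them Pabpc1, the poly(A)-binding protein (2.89-fold), and the elongation factors Eef2 (2.27-fold) and Eef1a1 (2.18-fold).

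Factors that build the small subunit were called in 4 of 29 cases, near the background, with a median fold of 1.23, as for all genes. Rcl1, a processing factor for the small-subunit rRNA, cycled 1.87-fold with a peak at ZT6.6. Of 15 genes for TOP regulators, 2 were called in footprints, also near the background of 16.7%. They were Larp1 (1.77-fold, peak at ZT23.9) and Mtor (1.71-fold, peak at ZT7.6). Both also cycled in total RNA, by 1.5-fold and 1.63-fold, with peaks at ZT0.3 and ZT7.3.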

How the data were processed

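Ribosome footprints and total RNA were measured in 24 lysate pools of 2 mouse livers each. The authors deposited RPKM per Ensembl gene, a table for each library. The submitters' processing notes name edgeR, Cufflinks 2.2.1, TopHat2 2.0.11, TopHat, Bowtie2 2.2.1, cutadapt and CASAVA 1.82, and builds GRCm38.p2 and mm10. Not given in the sources used here are the step each tool served, the gene models, the handling of reads with several matches and the library scaling. The upper quartile of a library was 21.7 to 22.7 RPKM in footprints and 26.6 to 27.9 in total RNA, so a change of all transcripts together would not be seen.

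Symbols, lengths and copies came from GENCODE M21 (GRCm38), which named 11242 of 11306 IDs, and start sites from RefSeq. RPKM times coding length came in whole steps (tolerance 0.04, chance 8%) for 60.3% to 72.2% of low values, which gave each library's approximate depth. These depths, and any error bar, cover counting and the spread between pools only.

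All models were run in limma 3.58.1 under R 4.3.3, and Python 3.11.15 (matplotlib 3.10.9, pandas 2.3.3, numpy 2.4.6) made tables and figures. Genes averaging 1 RPKM or more in each assay, 9445 in all, were fitted on log2(RPKM + 0.1) with a mean-variance trend, moderated F tests and Benjamini-Hochberg adjustment over all of them. The scale understates changes of low genes. On simulated data, 88% of 1.75-fold and 2% of 1.25-fold cycles of footprints were called, and the same shares for total RNA. These cycles were planted in genes drawn from all tested, with noise independent between genes. Footprints of the members had a wider spread between pools (median SD 0.35, against 0.17 for all genes), most of it shared. The simulated footprint shares therefore do not describe the members. Replicates are pools of different animals. Both assays of a pool share its lysate, per the labels' protocols. Deviations of paired libraries from their time point means had r of 0.16 to 0.683 across genes, above 0.1 at 12 of 12 time points.

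The members, gene lists and tests were chosen with earlier results of these data known. Values are given for the 4 widest and 4 narrowest footprint folds, the 2 widest and narrowest in total RNA, departing genes, the 3 highest and lowest efficiencies, the 3 most and least variable, and Rps6, Rpsa, Rps27a and Fau. Alternatives covered the pseudocount, the filter, the scaling, the trend, the fold minimum, the pairing, single pools and the 6 pools with pancreatic transcripts (summed level over 10 times the median). Leaving out Fau, both pools of ZT12 or both of ZT10 was chosen after seeing the data. Some other genes of the small subunit are not reported here.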

Additional observations from a re-analysis of the deposited data

How the results depend on the processing

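The contrast of the footprint calls with all genes depended on the 6 pools with pancreatic transcripts. With all pools, the footprint rhythm called 16 of 27 genes, against 16.7% of all genes. Without these 6 pools it called 2 of 27 (7.41%), against 15.2%. The footprint factor test went from 9 of 27, against 26.7%, to 1 of 27 (3.70%), against 12.6%. In both tests the members' share was then below that of all genes. In the efficiency comparison without these pools, 15 of 27 passed an unadjusted p under 0.05, against 5.97% of all genes, and none was called. The departures of footprints and total RNA counted 0 and 1 genes without these pools, while 11.8% and 17.2% of all genes were called. Those shares hold the subtracted course of the members and are no background for them. For the total RNA rhythm, 0 genes were called with a common sum without the 100 highest genes, 10 with a lower minimum fold and 16 with no minimum. The departure in total RNA counted 9 genes at a pseudocount of 1 and 11 with the median of the other members or without Fau. No share of all genes was counted beside the 11. The 12 h component in total RNA counted 2 genes at a mean of at least 5 RPKM, beside 530 of all genes kept at that minimum. The replicate block, as the ratio per lysate pool, called 1 gene for efficiency, Rps27a; the block changed neither rhythm count, at 16 in footprints and 3 in total RNA. The common sum shifted the median of all genes by up to 0.114 on the log2 scale, and 11 genes were then called in footprints, without Rps7, Rps9, Rps13, Rps23 and Rps24. Rps7 also lost its footprint call with no filter on low values (adjusted p 0.0506) and in limma without a trend (adjusted p 0.0524), and Rps15a (adjusted p 0.0488) and Rps28 (adjusted p 0.0481) gained one under median ratio scaling, which called 18. The footprint factor test called 6 genes without a trend, against 9. Leaving out single pools gave 11 to 21 genes for the footprint rhythm, 1 to 3 for total RNA, 0 to 1 for efficiency (Rps20 without replicate 1 of ZT0), 1 to 3 and 4 to 6 for the departures of footprints and total RNA, 1 to 3 for the 12 h component in total RNA, 3 to 24 and 8 to 16 for the factor tests, and -1.46 to -1.39 for the median efficiency. The 24 in the footprint factor test came without replicate 1 of ZT12, and the 3 when any 1 of 7 pools was left out. For single pools left out, the shares of all genes are not given here. The causes were not tested. Depth is least in total RNA of ZT18.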
